A study of Mus musculus with 10 samples.

Results

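The lipid droplet coat, CIDE and droplet-forming genes are 10 of the 41249 genes counted in interscapular brown adipose tissue (iBAT) of these mice: the perilipins Plin1 to Plin5, the CIDE genes Cidea and Cidec, and Bscl2, Fitm1 and Fitm2, whose proteins act where droplets form. They were taken as a named list and matched by gene symbol, and all 10 were found. The rule uses no measured value, but the list was drawn up with earlier results of these data known. RNA of whole iBAT depots was compared between 5 Axl KO and 5 wild-type (WT) mice. By the series' design text all were kept on a high-fat diet (HFD) for 24 weeks from an age of 6 to 8 weeks, at room temperature. The mice were male by the description of the experiment, which differs slightly in the length of the diet and the age at its start. The Axl KO mice were homozygous for the constitutive "knockout-first" allele of Axl, a gene trap cassette in an intron that diverts splicing into LacZ, made from modified ES cell clones and bred with C57Bl6 mice, so the allele was carried by every cell type of the body and not by brown adipocytes alone. The WT controls were littermates without the allele. Each library came from 1 mouse.

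Triglyceride is stored in droplets that form between the leaflets of the endoplasmic reticulum membrane. Seipin, the product of Bscl2, and the FIT proteins (Fitm1, Fitm2) act at this step, perilipins then cover the droplet and set how easily lipases reach the lipid, and CIDE proteins bring droplets together and pass lipid from the smaller to the larger one. Brown adipocytes hold many small droplets whose fatty acids fuel heat production, and on a long HFD such droplets are known to become fewer and larger. RNA of a whole depot is an average over adipocytes, vessels, connective tissue and other cells, so fewer cells of a type and less RNA per cell cannot be told apart.

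Total counts ranged from 5431014 to 9580215 per mouse, with the smallest total in Axl KO replicate 5. The 10 genes took between 0.666% and 0.758% of all counts in each mouse. Axl had 3 to 15 counts in Axl KO and 224 to 383 in WT mice, which matches the labels. Ucp1, the uncoupling protein that defines brown adipocytes, lay between 2990 and 7632 CPM (counts scaled to the TMM-normalized size of each library) in the 10 mice, while 7 B and T cell markers summed to 0.617 to 1.98 CPM. The summed level of 14 skeletal muscle genes ranged from 7.67 to 3786 CPM in Axl KO and from 911 to 4506 CPM in WT mice, and 14 of 14 had a negative log2 fold change with 0 past an adjusted p of 0.05. Of 15 brown fat genes 13 had a positive log2 fold change (6 with an unadjusted p under 0.05), and 6 of 6 fibroblast and matrix genes had a negative one (2, Col1a1 and Col1a2, with an unadjusted p under 0.05), where 8.40% of all tested genes had such a p in either direction. In neither list was a gene past an adjusted p of 0.05. Over all tested genes 49.8% had a positive log2 fold change. The sums of the macrophage (152 to 278 and 170 to 259 CPM), endothelial (509 to 638 and 510 to 726 CPM) and erythroid lists (384 to 714 and 474 to 666 CPM) overlapped between Axl KO and WT mice. Apart from a fit with the muscle list as a covariate, the part of other cell types in the values below was not tested.

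The levels of different genes can be compared once counts are divided by the length of the exons. On this scale (CPM per kb of annotated exon, mean of 10 mice) Cidea was the highest of the 10 genes with 1570, followed by Cidec with 667, Plin2 with 308, Plin1 with 241, Plin4 with 163 and Plin5 with 159. The other genes lay far lower, Fitm2 at 67.8, Plin3 at 42.7, Bscl2 at 27.4 and Fitm1 at 2.42 CPM per kb. On these lengths both CIDE genes lay above every perilipin in each of the 10 mice. The order Cidea, Cidec, Plin2 was the same in each mouse, Plin2 exceeded Plin1 in 9 of 10 mice, and Plin4 exceeded Plin5 in 7 of 10, so these last 2 neighbours were not separated beyond their spread. The order rests on the lengths: with the exons of basic protein-coding transcripts alone, a choice made after the values were seen, Bscl2 exceeded Plin3 in 10 of 10 mice in place of 0 of 10. On those lengths Cidec exceeded Plin2 in 9 of 10 mice, with means of 706 and 574 CPM per kb, and in Axl KO replicate 5 Plin2 was higher (733 against 710).

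**Figure D1:**
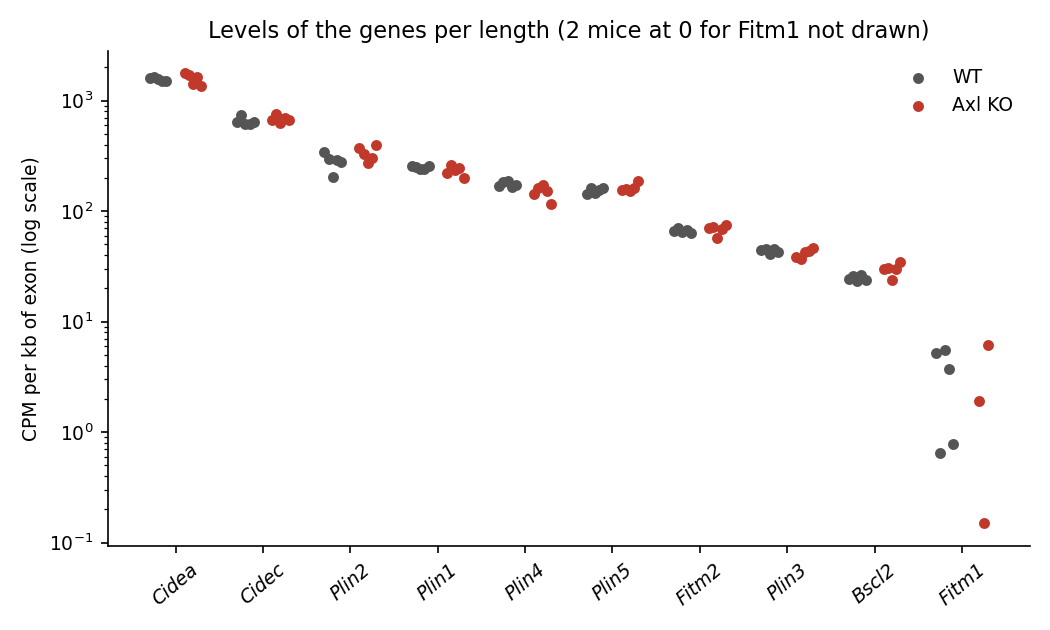
Level of each gene in CPM per kb of annotated exon (log axis) in the 5 WT (grey) and 5 Axl KO (red) mice, 1 point per mouse. Cidea and Cidec lie highest, at a mean of 1570 and 667, and Fitm1 spreads from 0 to 6.20, with 2 Axl KO mice at 0 left off the log axis.

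The design asked how loss of Axl relates to expression in iBAT on HFD. Over 13739 tested genes, the quasi-likelihood test of edgeR gave 0 of the 10 genes an adjusted p below 0.05 (Benjamini-Hochberg), where 0.00728% of all tested genes did (Axl alone), and DESeq2 also called 0 of the 10. An unadjusted p under 0.05 was found for 2 of the 10, Plin4 with a lower and Bscl2 with a higher level in Axl KO mice, where 8.40% of all tested genes had one. The normalized counts of the 2 groups overlapped for each of the 10 genes, and for 1.35% of all tested genes they did not. The median log2 fold change of the 10 genes was 0.030, against −0.00059 over all tested genes. Of the 10, 6 were higher in Axl KO mice, against 49.8% of all tested genes. All 10 passed the filter on low counts, a mean above 1 CPM.

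**Figure D2:**
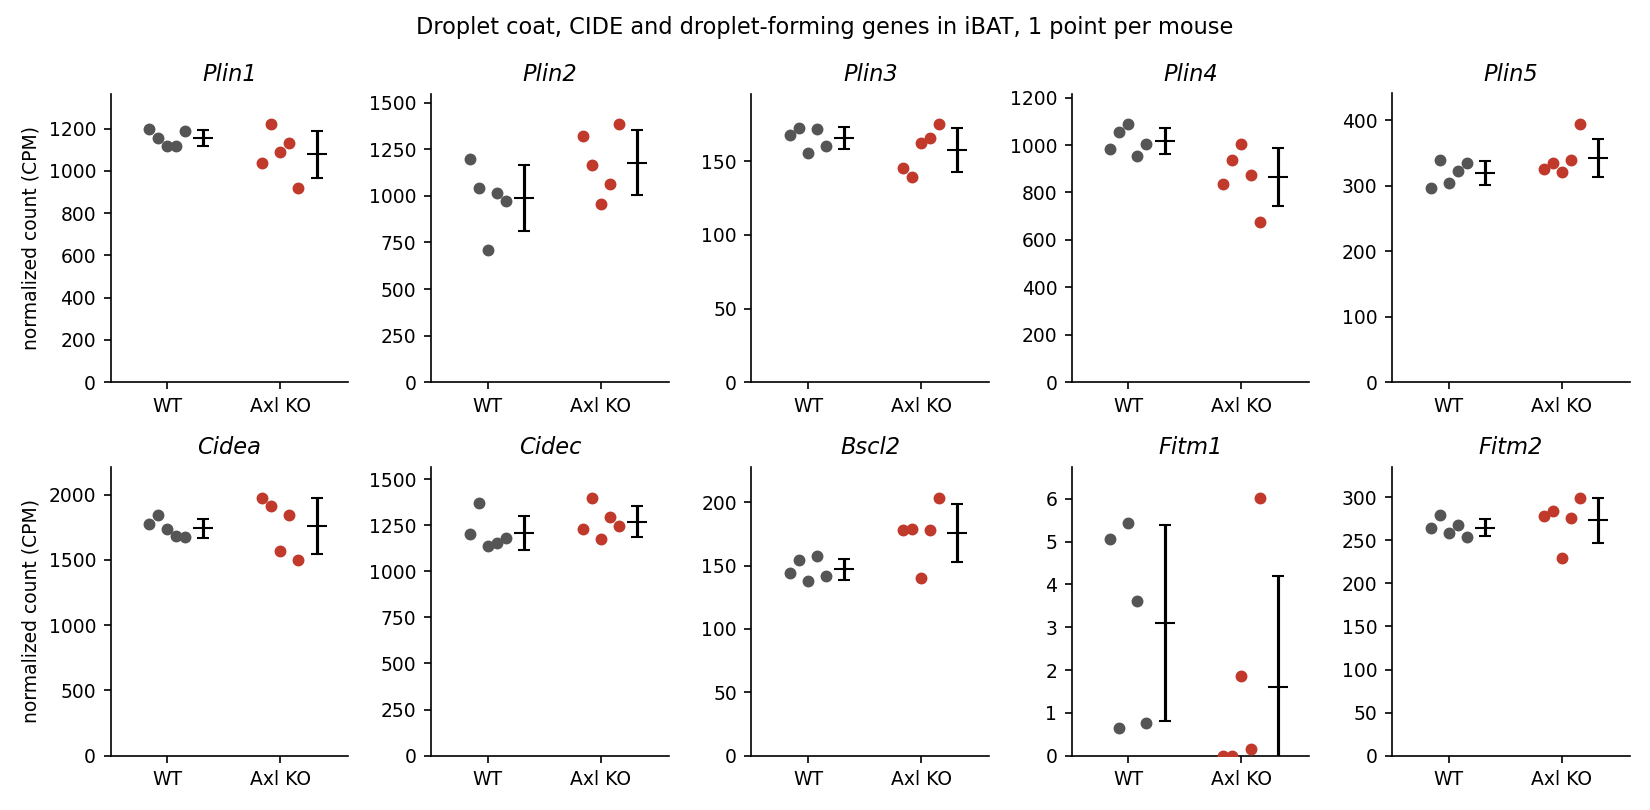
Normalized count (CPM) of each gene in every WT (grey) and Axl KO (red) mouse, with the mean and SD beside the points (n = 5 each, SD bars cut at 0 for Fitm1). The groups overlap for each gene, and the lowest Plin4 and highest Bscl2 value come from the same Axl KO mouse, at 676 and 203 CPM.

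Perilipin 1, which covers the large droplets of adipocytes and holds back lipolysis until it is phosphorylated, is encoded by Plin1 (ENSMUSG00000030546, chromosome 7 from 79720218 to 79732903 of GRCm38, reverse strand). Its normalized count was 1036, 1220, 1089, 1133 and 921 CPM in Axl KO replicates 1 to 5 and 1198, 1158, 1118, 1119 and 1192 CPM in WT replicates 1 to 5. WT mice lay close together, whereas Axl KO mice spread to both sides of them, with 3 below and 1 above every WT mouse. Its log2 fold change was −0.100 (95% interval −0.26 to 0.060, edgeR adjusted p = 0.718), and the exact permutation test (two-sided) gave p = 0.183.

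Plin2 encodes the perilipin found on droplets of most cell types, whose protein is stable only when bound to lipid (ENSMUSG00000028494, chromosome 4 from 86648386 to 86670060, reverse strand). It measured 1324, 1167, 959, 1063 and 1384 CPM in Axl KO replicates 1 to 5 and 1198, 1043, 710, 1014 and 970 CPM in WT replicates 1 to 5. Axl KO replicates 1 and 5 lay above every WT mouse and WT replicate 3 lay below every Axl KO mouse, while the others were mixed. The mean was 1179 ± 177 CPM in Axl KO and 987 ± 177 CPM in WT mice (SD, n = 5 each). It was 19.5% higher in Axl KO mice (two-sided exact permutation test, p = 0.135). The fitted log2 fold change was 0.26 (95% interval −0.032 to 0.55, edgeR adjusted p = 0.616). With single mice left out it ranged from 0.16 (without WT replicate 3) to 0.34 (without WT replicate 1). The unadjusted p of Plin2 was 0.0769 in the edgeR test and below 0.05 in 4 of 18 alternative fits.

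Plin3 encodes a perilipin that moves between the cytosol and new droplets (ENSMUSG00000024197, chromosome 17 from 56277476 to 56292873, reverse strand). Its level was low and even, from 139 to 175 CPM in Axl KO (median 163) and from 156 to 173 CPM in WT mice (median 168), with Axl KO values on both sides of the WT range. Its log2 fold change was −0.073 (95% interval −0.22 to 0.078, edgeR adjusted p = 0.788).

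Plin4 and Plin5 are neighbours, read in the same direction with 1797 bp between them, but their values did not go the same way. Plin4 (ENSMUSG00000002831, chromosome 17 from 56100591 to 56109803, reverse strand) encodes a perilipin with a long repetitive helix that coats droplets of white adipocytes and muscle. It measured 834, 938, 1004, 873 and 676 CPM in Axl KO replicates 1 to 5 and 983, 1055, 1087, 955 and 1002 CPM in WT replicates 1 to 5. Thus 4 of the 5 Axl KO mice lay below every WT mouse, and Axl KO replicate 3 stood inside the WT range. The mean was 865 ± 124 CPM in Axl KO against 1016 ± 53.8 CPM in WT mice (SD, n = 5 each), 14.9% lower (two-sided exact permutation test, p = 0.0397). The log2 fold change of −0.23 (95% interval −0.44 to −0.029) had an unadjusted p of 0.0282 and an adjusted p of 0.571 over all tested genes in the edgeR test, so it did not pass the threshold. Without Axl KO replicate 5, which had the lowest value, the log2 fold change was −0.16 (edgeR adjusted p = 0.705). Over 18 alternative fits the unadjusted p of Plin4 was below 0.05 in 14, and it was 0.0565, 0.0502, 0.0575 and 0.0610 without Axl KO replicate 1, Axl KO replicate 5, WT replicate 2 and WT replicate 3.

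Plin5 (ENSMUSG00000011305, chromosome 17 from 56111601 to 56117596, reverse strand) encodes the perilipin of oxidative tissues, which ties droplets to mitochondria. It measured 325, 334, 321, 339 and 394 CPM in Axl KO replicates 1 to 5 and 297, 339, 304, 323 and 335 CPM in WT replicates 1 to 5. Apart from Axl KO replicate 5, the mice of both groups shared 1 narrow range. The log2 fold change was 0.100 (95% interval −0.051 to 0.25, edgeR adjusted p = 0.698), and 0.045 without Axl KO replicate 5.

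**Figure D3:**
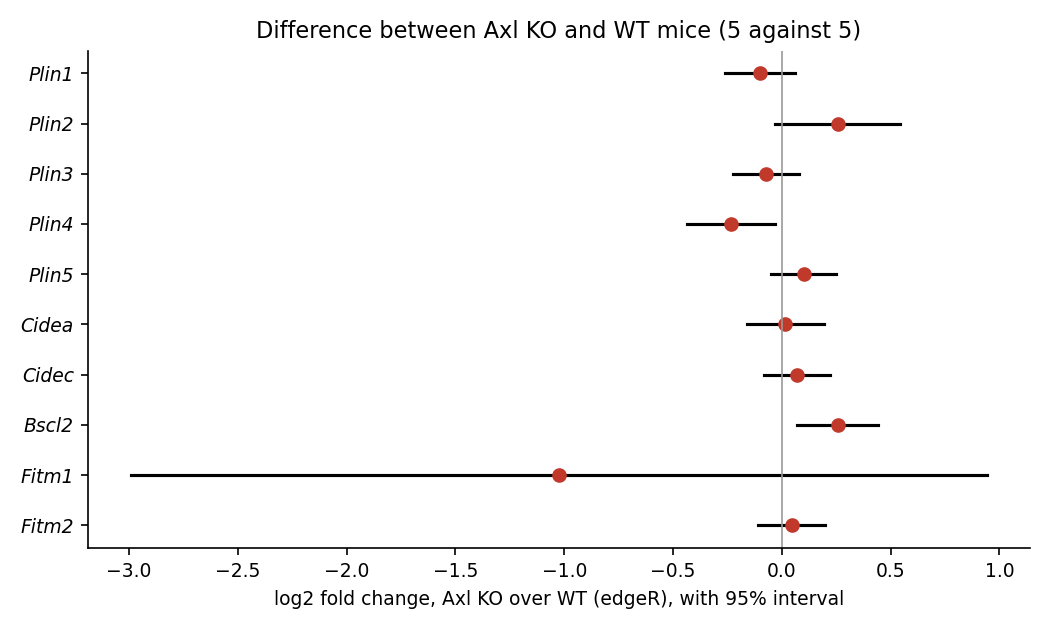
Log2 fold change of each gene, Axl KO over WT (edgeR, 5 against 5 mice), as a point with its 95% interval as a line. Only the intervals of Plin4 (−0.44 to −0.029) and Bscl2 (0.069 to 0.44) leave out 0 before adjustment over all genes, and that of Fitm1 is the widest.

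Promoter sequence is shown for the genes with the largest differences in the comparison (Plin2, Plin4 and Bscl2, apart from the sparse Fitm1) and for Plin5, the neighbour of Plin4, so that the neighbouring perilipins can be read side by side. Windows from 250 bases before to 50 bases after a start site were at hand from RefSeq (GRCm38.p6) for 9 of the 10 genes, all but Cidea. Searched on both strands were AGGTCA (the core element of nuclear receptors such as the PPARs), 2 such elements 1 base apart with up to 2 mismatches in all (the arrangement PPARs bind), the CCAAT box, the GC box with the letters GGGCGG, the TATA box with the letters TATAAA, and the E-box with the letters CACGTG. The 250 bases before the start follow, 5′ to 3′ on the strand of the gene, with matches in capitals on whichever strand they read. The E-box of Plin2, which spans the start site, and matches after a start are not marked.
Plin2, chr4:86670060-86670309: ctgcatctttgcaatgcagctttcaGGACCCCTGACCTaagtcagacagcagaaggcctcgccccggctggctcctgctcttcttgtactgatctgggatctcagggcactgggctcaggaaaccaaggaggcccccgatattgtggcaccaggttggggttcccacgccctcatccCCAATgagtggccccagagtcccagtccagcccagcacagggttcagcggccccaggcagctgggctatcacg
Plin4, chr17:56109783-56110032: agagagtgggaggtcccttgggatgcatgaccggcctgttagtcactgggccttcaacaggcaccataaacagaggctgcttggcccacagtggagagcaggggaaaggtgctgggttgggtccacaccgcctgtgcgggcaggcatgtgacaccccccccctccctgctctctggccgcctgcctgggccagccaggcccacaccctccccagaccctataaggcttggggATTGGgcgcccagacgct
Plin5, chr17:56117549-56117798: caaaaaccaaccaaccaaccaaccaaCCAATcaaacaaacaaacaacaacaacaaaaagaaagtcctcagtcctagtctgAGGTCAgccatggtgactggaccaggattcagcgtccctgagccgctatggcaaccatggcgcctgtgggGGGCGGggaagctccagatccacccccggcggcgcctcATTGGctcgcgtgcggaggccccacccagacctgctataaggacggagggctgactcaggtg
Bscl2, chr19:8837217-8837466: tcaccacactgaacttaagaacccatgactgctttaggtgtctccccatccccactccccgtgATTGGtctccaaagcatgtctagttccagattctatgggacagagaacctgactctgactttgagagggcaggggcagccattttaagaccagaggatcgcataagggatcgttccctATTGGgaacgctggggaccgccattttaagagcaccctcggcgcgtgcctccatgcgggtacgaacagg

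In the Plin2 stretch the paired element lies from −225 to −213 on the opposite strand, with 2 mismatches, and contains the single AGGTCA found there. Such a pair was found for 1 of the 9 genes, and 3.86% of all 32851 promoter windows hold one. A single AGGTCA was found in the windows of Plin2, Plin5 and Bscl2 (for Bscl2 at another start site than the one shown), and 16.3% of all windows hold it. A CCAAT was found in windows of 5 of the 9 genes (37.4% of all windows), a GC box in 5 of 9 (35.7%), an E-box in 1, Plin2 (7.15%), and TATAAA in 0 (13.6%). A CCAAT box was the only one of these motifs in the Plin4 window, and Plin5 held it too. Genes were counted over all their windows, of which Plin5 and Bscl2 had more than 1. A count of genes is therefore not directly comparable with the share of single windows. These matches describe the letters and show neither binding nor its absence.

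The composition of the perilipin coat at the RNA level was compared as the share of each gene in the summed CPM per kb of the 5 perilipins. The shares of 1 mouse add up to 100%, so they are not independent of each other. Plin2 made up 40.2, 34.8, 31.1, 33.5 and 41.7% in Axl KO replicates 1 to 5 and 35.7, 31.7, 24.7, 32.3 and 30.4% in WT replicates 1 to 5. Plin4 made up 15.4, 17.0, 19.8, 16.7 and 12.4% in Axl KO and 17.8, 19.5, 23.0, 18.5 and 19.1% in WT mice, in the same order. For Plin4 again 4 of 5 Axl KO mice lay below every WT mouse, and for Plin2 the groups were more mixed. The mean share of Plin4 was 3.31 percentage points lower in Axl KO mice (two-sided exact permutation test, p = 0.0556) and that of Plin2 5.31 points higher (p = 0.103 in the same exact test), so neither difference passed 0.05, where 5 mice against 5 can reach 0.00794. Plin1 took 20.98 to 27.5% in Axl KO and 26.6 to 29.4% in WT mice, Plin5 16.6 to 19.99% and 14.9 to 17.8%, and Plin3 3.85 to 4.90% and 4.64 to 5.07%, with two-sided exact permutation p-values of 0.127, 0.460 and 0.294. With each mouse left out, the difference ranged from −4.19 to −2.34 points for Plin4 and from 3.75 to 6.59 points for Plin2. The smallest differences were those without Axl KO replicate 5 for Plin4 (−2.34 points, exact p = 0.111) and without WT replicate 3 for Plin2 (3.75 points, exact p = 0.206).

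**Figure D4:**
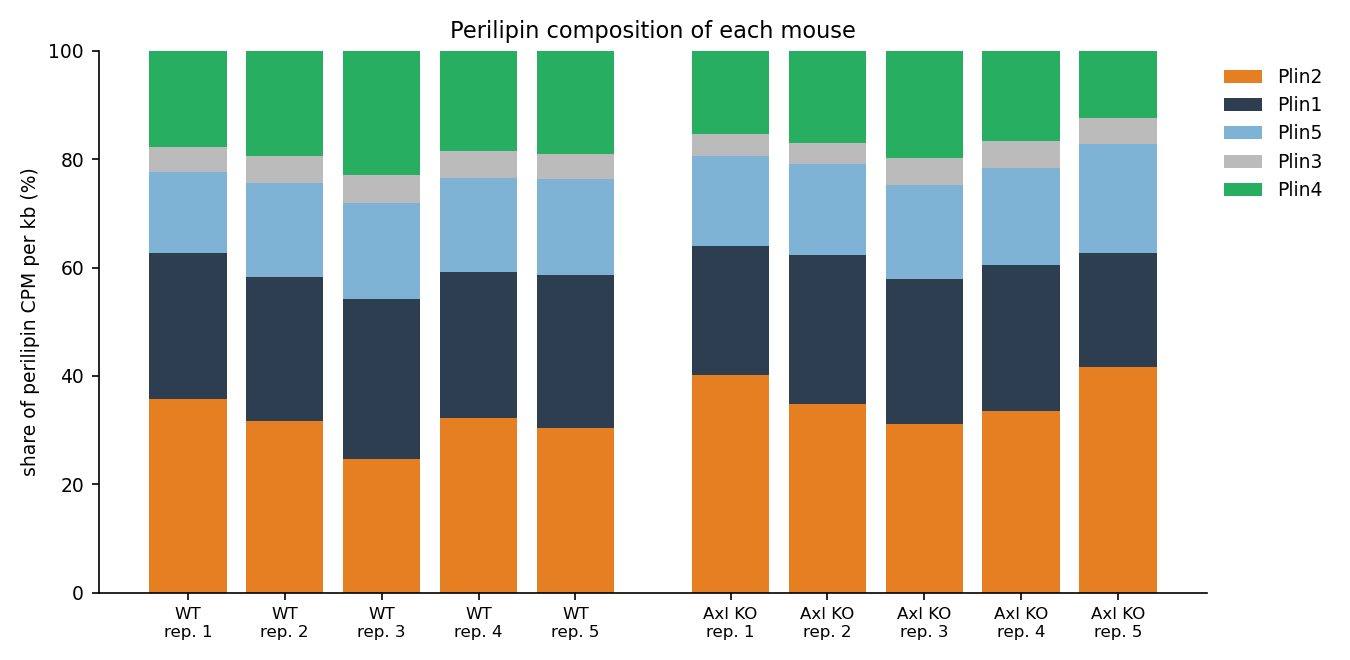
Share of each perilipin in the summed CPM per kb of the 5 perilipins, 1 bar per mouse, WT at the left and Axl KO at the right. The top segment, Plin4, covers 12.4 to 19.8% in Axl KO and 17.8 to 23.0% in WT mice, and the bottom segment, Plin2, 31.1 to 41.7% and 24.7 to 35.7%.

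Cidea (ENSMUSG00000024526, chromosome 18 from 67343604 to 67367785, forward strand), a marker of brown adipocytes whose protein joins droplets, measured 1975, 1912, 1567, 1843 and 1501 CPM in Axl KO replicates 1 to 5 and 1777, 1843, 1735, 1680 and 1673 CPM in WT replicates 1 to 5. Axl KO mice spread to both sides of the WT mice, 2 above and 2 below all of them, around the same mean. The means were 1760 ± 213 and 1742 ± 70.8 CPM (SD, n = 5 each). Its log2 fold change was 0.015 (95% interval −0.16 to 0.19, or between 0.894 and 1.14 times the WT level, edgeR adjusted p = 0.978).

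Cidec (ENSMUSG00000030278, chromosome 6 from 113424634 to 113435760, reverse strand), whose protein drives the single large droplet of white adipocytes, lay between 1176 and 1397 CPM in Axl KO (median 1247) and between 1135 and 1369 CPM in WT mice (median 1181). The ranges coincided almost completely, but the upper end in WT mice was replicate 2 alone, with the next WT mouse at 1203 CPM. The log2 fold change was 0.071 (95% interval −0.080 to 0.22, edgeR adjusted p = 0.794), and 0.12 without WT replicate 2. Per length, Cidea made up 66.7 to 72.8% of both CIDE transcripts in Axl KO and 69.1 to 71.8% in WT mice, with a mean difference of −0.972 percentage points, Axl KO minus WT (two-sided exact permutation test, p = 0.413). The white fat list (Lep, Retn and 6 others, 6 of 8 above the filter) summed to 217 to 665 CPM in Axl KO and 290 to 604 CPM in WT mice, and the adipocyte list (Adipoq, Fabp4 and 6 others) to 13346 to 16146 and 13456 to 15345 CPM. Both lists overlapped between the groups.

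Bscl2 (ENSMUSG00000071657, chromosome 19 from 8837467 to 8848683, forward strand) encodes seipin, which gathers triglyceride at the sites where droplets bud and without which adipose tissue is lost. It measured 178, 179, 140, 178 and 203 CPM in Axl KO replicates 1 to 5 and 144, 154, 138, 157 and 142 CPM in WT replicates 1 to 5. Thus 4 of the 5 Axl KO mice lay above every WT mouse, and Axl KO replicate 3 again stood among the WT mice. The mean was 176 ± 22.6 CPM in Axl KO against 147 ± 8.35 CPM in WT mice (SD, n = 5 each), 19.5% higher (two-sided exact permutation test, p = 0.0397). The log2 fold change of 0.26 (95% interval 0.069 to 0.44) had an unadjusted p of 0.0112 and an adjusted p of 0.571 over all tested genes in the edgeR test. Its unadjusted p was below 0.05 in 18 of 18 alternative fits, whereas its adjusted p stayed between 0.107 and 0.812. Part of the gene, 398 exon bases, lies opposite exons of Gng3, which had 13 counts over all 10 mice. Another 239 bases are shared with AC129217.1 on the same strand, which is not among the 41249 counted genes. How reads from these shared bases were counted is not known.

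Fitm2 (ENSMUSG00000048486, chromosome 2 from 163466379 to 163472629, reverse strand), the FIT protein of adipose tissue, measured 278, 284, 229, 276 and 299 CPM in Axl KO replicates 1 to 5 and 265, 280, 258, 268 and 254 CPM in WT replicates 1 to 5. The log2 fold change was 0.045 (95% interval −0.109 to 0.199, edgeR adjusted p = 0.878). As for Bscl2, replicate 3 was the lowest and replicate 5 the highest of the Axl KO mice, and the WT mice lay between them for Fitm2. Across the 10 mice, log2 levels of Fitm2 and Bscl2 varied together (Pearson r = 0.82, Spearman rho = 0.88, and r = 0.69 without the 2 mice farthest from the median of Bscl2). Plin4 and Bscl2 varied in opposite directions (r = −0.89, rho = −0.88, and r = −0.79 without the 2 mice farthest from the median of Plin4). Within genotypes these values of r were 0.96 and −0.80. Over the 10 mice these 2 pairs are the strongest positive and negative of 36 pairs among 9 genes (Fitm1 left out). They are given as a description, with no test, since the points share libraries and their composition. Without Axl KO replicate 5, r was 0.75 for Fitm2 and Bscl2 and −0.83 for Plin4 and Bscl2. The highest r was then that of Cidea and Fitm2, at 0.89 (0.28 in all 10 mice). For Plin1 and Plin4 (r = 0.78), r fell to 0.36 without Axl KO replicate 5, so that relation rests on 1 mouse.

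**Figure D5:**
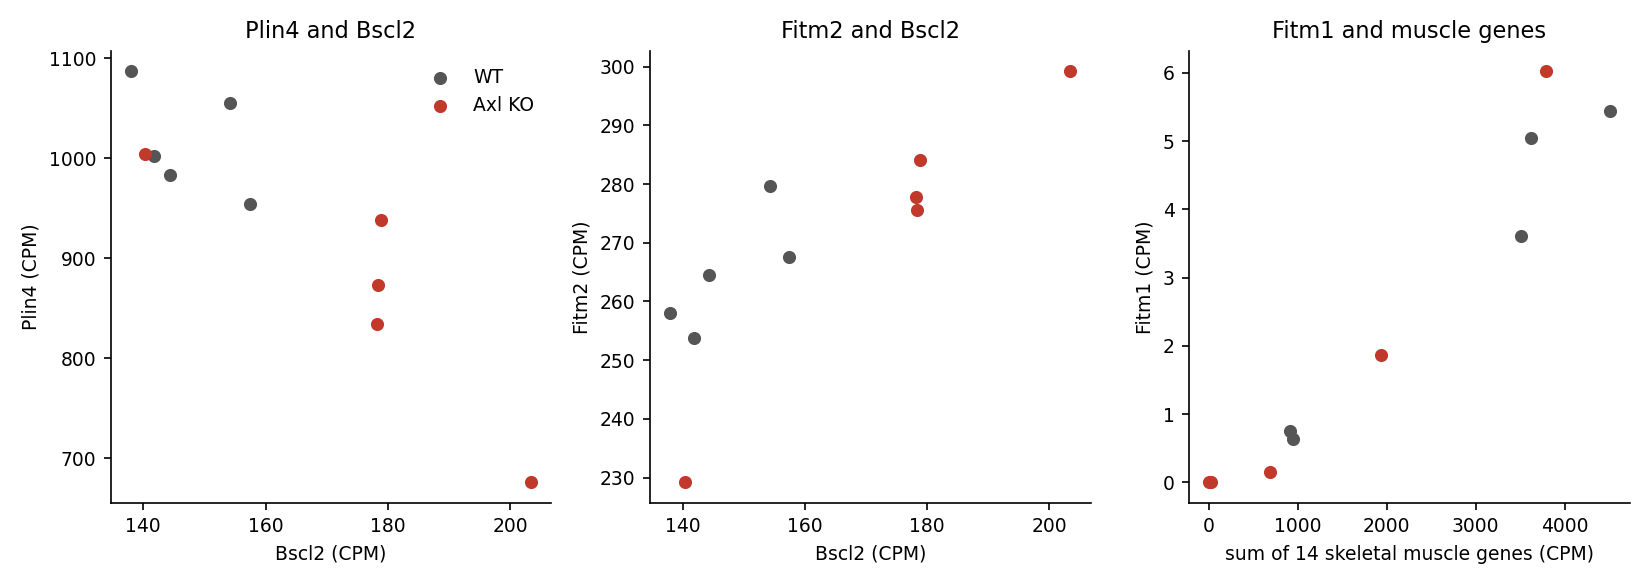
Normalized counts (CPM) of Plin4 against Bscl2 (left), Fitm2 against Bscl2 (middle) and Fitm1 against the sum of 14 skeletal muscle genes (right), 1 point per WT (grey) or Axl KO (red) mouse. Plin4 runs from 1087 CPM at the lowest Bscl2 value to 676 CPM at the highest, and Fitm1 is at 0 in the 2 mice with the lowest muscle sum, 7.67 and 28.2 CPM.

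Fitm1 (ENSMUSG00000022215, chromosome 14 from 55575617 to 55576954, forward strand) encodes the FIT protein of skeletal muscle and heart, and it was the only one of the 10 genes near the limit of detection. Its raw counts were 0, 0, 16, 1 and 32 in the Axl KO mice, replicates 1 to 5, and 37, 6, 47, 21 and 6 in the WT mice. A count of 0 allows up to 3 counts, or 0.463 and 0.451 CPM in the 2 mice at 0, for counting error only. The summed level of the 14 skeletal muscle genes was 28.2, 7.67, 1936, 695 and 3786 CPM in the same Axl KO mice and 3618, 950, 4506, 3511 and 911 CPM in the same WT mice. The 4 mice with the most Fitm1 counts were the 4 with the highest muscle sum, and the 2 mice at 0 had the lowest. The genes whose log2 level followed Fitm1 most closely over the 10 mice were Tmem38a, Atp5g1 and Klhl40 (r = 0.995, 0.986 and 0.985, as a description), of which Tmem38a and Klhl40 are known from skeletal muscle. The log2 fold change of Fitm1 was −1.02 (95% interval −2.99 to 0.94, edgeR adjusted p = 0.766), and 0.16 with the muscle list as a covariate. In DESeq2 the log2 fold change was −0.95, and in edgeR without Axl KO replicate 5 it was −2.36. Its size thus depends on single mice and is no bound.

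Axl KO replicate 5 stood apart from the other mice. It had the highest value of all 10 mice for Plin2, Plin3, Plin5, Bscl2, Fitm1 (in CPM) and Fitm2, and the lowest for Plin1, Plin4 and Cidea, so 9 of the 10 genes had their extreme there. Over all tested genes this mouse was at either end for 34.9%, the highest share of the 10 mice, which ranged down to 11.2%. It also had the smallest total count, the highest Ucp1 and brown fat list sum (12795 CPM, against 7428 to 10746 in the other mice) and a muscle sum among the 3 highest. The part of these in the values of the droplet genes was not tested. Without it, the log2 fold change of Plin1 went from −0.100 to −0.049, that of Plin5 from 0.100 to 0.045 and that of Fitm2 from 0.045 to 0.0091. Bscl2 then had a log2 fold change of 0.20 and Plin2 of 0.19, with edgeR adjusted p-values of 0.662 and 0.821, and Fitm1 of −2.36 (edgeR adjusted p = 0.647).

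Genes of droplet lipolysis, triglyceride synthesis, droplet assembly and contact, and other droplet proteins made up 4 further lists. They held 65 genes, of which 61 passed the filter. In the edgeR test 0 of them had an adjusted p under 0.05, while 5 had an unadjusted p under 0.05 with a higher and 1 with a lower level in Axl KO mice (9.84% of the 61, close to the 8.40% of all tested genes). Their median log2 fold change was 0.044, against −0.00059 over all tested genes. Of the 61, 37 (60.7%) were higher in Axl KO mice, against 49.8% of all tested genes. Among 7 genes of lipolysis at the droplet, Abhd5, the coactivator that perilipin 1 releases to the lipase Pnpla2, had the lowest p, at 170 ± 46.9 CPM in Axl KO against 118 ± 10.5 CPM in WT mice (SD, n = 5 each), with a log2 fold change of 0.53 (edgeR adjusted p = 0.571). Pnpla2 itself was at 1837 ± 218 against 1684 ± 80.3 CPM (SD, n = 5 each), with an edgeR adjusted p of 0.682. Among 11 genes of triglyceride synthesis, Agpat2, an acyltransferase whose loss, like that of seipin, causes lipodystrophy, had a log2 fold change of 0.29 (edgeR adjusted p = 0.571).
Of 23 tested genes for droplet assembly and contact, Cideb, the CIDE gene of liver and gut, had a log2 fold change of −0.71 at 1.13 to 6.24 CPM in the 10 mice (edgeR adjusted p = 0.588), and of 20 other droplet proteins, Ldah, Aup1 and Hsd17b7 had log2 fold changes of 0.25, 0.19 and 0.36 (edgeR adjusted p-values of 0.571, 0.571 and 0.581). Tmem159, the partner of seipin, was at 12.3 ± 1.61 CPM in Axl KO and 14.3 ± 1.40 CPM in WT mice (SD, n = 5 each, log2 fold change −0.22, edgeR adjusted p = 0.601), the opposite sign to Bscl2.

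For the other 9 genes of the list, the genes with the most similar log2 level over the 10 mice, of 13738 compared, are given as a description without a test. Plin2 was followed most closely by Vac14 (r = 0.974), Agpat2 (0.967) and Cables1 (0.964), Plin4 by Esyt1 (0.9754), Zc3h7b (0.9752) and Ugt1a6a (0.969), and Bscl2 by Tgoln1 (0.981), Clptm1 (0.977) and Tomm6 (0.974). The closest gene was Gm7265 for Plin1 (r = 0.951), Mre11a for Plin3 (0.951), Bri3 for Plin5 (0.968), Uhmk1 for Cidea (0.908), Atraid for Cidec (0.918) and Atp5d for Fitm2 (0.945). These are the highest of 13738 values each, and the points share libraries and their composition.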

How the data were processed

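The deposited tables hold raw counts of reads per Ensembl gene, 1 table per mouse, neither normalized nor pooled by the authors. The paper names Trim Galore, hisat2 and GRCm38, whereas the submitters' processing notes name Trimmomatic 0.36, STAR 2.6.1c and GRCm38.p5. The paper describes rRNA-depleted and the labels polyadenylated RNA. The counting tool and its strand setting are not given in the sources used here, so counts of overlapping genes are uncertain. Symbols, exons and coordinates came from GENCODE M21 (GRCm38), which held 41163 of 41249 identifiers.

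Counts were normalized by TMM and compared between genotypes with edgeR 4.0.16 (quasi-likelihood test, R 4.3.3, no covariate) over 13739 genes with a mean above 1 CPM, with Benjamini-Hochberg adjustment over all of them. DESeq2 1.42.0 was an alternative. For single values and shares, exact permutation tests over mice (two-sided) were used, 16 in the main comparison (10 members and 6 shares). The share tests were repeated in the alternatives, and the 65 other droplet genes were tested in the same way. None of these p-values is adjusted. The edgeR procedure was tested on simulated counts with planted 2-fold changes. Differences as small as those of the members other than Fitm1 were not part of that test. The total per mouse sets the precision of low counts.

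The members and the gene lists were chosen with earlier results of these data known. The genes named are the members, Axl, the other droplet genes with an unadjusted p under 0.05 or the lowest of their list, cell type markers, and the genes most similar to each member; Pnpla2, Tmem159 and the promoters shown were added after their values were seen.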

Additional observations from a re-analysis of the deposited data

Results flagged for a closer look

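In 32 groups of 5 mice (10 genes and 6 shares in 2 genotypes), 3 had a highest or lowest value lying apart from its nearest neighbour by over 0.71 of the range, where 1 in 20, or 1.6, are expected by chance. The Plin5 level of Axl KO replicate 5 was the highest of its group, 394 CPM, with the nearest mouse at 339 CPM. Among WT mice, replicate 2 had the highest Cidec, 1369 CPM, with the nearest at 1203 CPM. Among WT mice, replicate 1 had the lowest share of Plin5 in the perilipins, 14.9%, with the nearest at 17.3%.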

How the results depend on the processing

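Across 18 alternative fits (DESeq2, RLE size factors, filterByExpr, no filter, a robust fit, protein-coding genes alone, the muscle list as a covariate, the replicate number as a block, and each mouse left out), 0 of the 10 genes passed an adjusted p of 0.05. Over all genes, DESeq2 called 9 genes in place of 1, and with each mouse left out edgeR called 1. Members with an unadjusted p under 0.05 numbered 2, and between 1 and 3 with each mouse left out (1 without Axl KO replicate 1, WT replicate 2 or WT replicate 3, and 3 without Axl KO replicate 3 or WT replicate 1). Without Axl KO replicate 5 the number was 2, with Fitm1 in place of Plin4. With the muscle list as a covariate the log2 fold changes of Plin3 (0.016), Cidea (−0.11) and Fitm1 (0.16) changed sign. That of Cidea lay between −0.030 and 0.066 with each mouse left out, being −0.030, −0.017 and −0.0021 without Axl KO replicates 1, 2 and 4. Differences in share with each mouse left out ranged from −3.02 to −1.39 points for Plin1, 3.75 to 6.59 for Plin2 and −4.19 to −2.34 for Plin4. They passed an exact p of 0.05 without Axl KO replicate 2 (Plin1), without Axl KO replicate 3 or WT replicate 1 (Plin2) and without Axl KO replicate 3 (Plin4). Axl KO replicate 3 was the only Axl KO mouse not below every WT mouse for the Plin4 share, so that leaving it out fixes the smallest p of 4 against 5 mice. Share differences kept their sign without division by length, with other exon lengths (chosen after seeing the data) and by replicate block. Same-numbered mice did not deviate together (correlations from −0.36 to 0.37), so the numbers were not used to pair them. With the replicate block, 3 members had an unadjusted p under 0.05 and the exact test of shares could not go below 0.0625. The cause of these changes was not tested.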

Other observations

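The spread between mice was larger in Axl KO than in WT mice for 8 of the 10 genes, as a coefficient of variation, with 10.3% against 3.31% for Plin1, 14.3% against 5.30% for Plin4 and 12.1% against 4.06% for Cidea. Over all tested genes it was larger in Axl KO mice for 63.1%, with medians of 13.3% and 11.3%. The difference in spread was not tested.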
